A study of Mus musculus with 6 samples.

Results

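Target clusters of 13 miRNAs from 5 seed families, miR-15/16, miR-103/miR-107, miR-23, miR-24 and miR-27, were collected from AGO2 chimeric eCLIP of mouse brain. A target cluster is a stretch of RNA on which chimeric reads, each a miRNA ligated to a piece of its target, were piled up and named after that miRNA. Members were all clusters deposited under miR-15a-5p, miR-15b-5p, miR-16-5p, miR-195a-5p, miR-322-5p and miR-497a-5p (miR-15/16), miR-103-3p and miR-107-3p (miR-103/miR-107), miR-23a-3p and miR-23b-3p (miR-23), miR-24-3p (miR-24), and miR-27a-3p and miR-27b-3p (miR-27). A coordinate was counted once for each family, and each miRNA outside the 5 families counted as a family of its own. This gave 2053 entries out of 65916 in the 3 libraries. They were 559 of 21992 in WT, 1022 of 30471 in *Mov10* Deletion replicate 1 and 472 of 13453 in *Mov10* Deletion replicate 2.

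The brains were whole C57Bl/6J brains at postnatal day 0 (P0), 1 of WT genotype and 2 of *Mov10* Deletion genotype, and each AGO2 immunoprecipitate (IP) had a size-matched input that entered through the authors' IP over input values. *Mov10* Deletion mice carry *Mov10* alleles with LoxP sites around exons 6 and 7 together with a Cre driven by *Emx1*, which acts in excitatory neurons of the hippocampus and neocortex, and they were bred with the *Mov10* +/- line. Whole brain therefore also holds cells in which this Cre is not active. MOV10 is an RNA helicase that associates with AGO2, and the comparison asks where AGO2 and its miRNAs sit on RNA when MOV10 is reduced. With 1 WT library no test between the genotypes was possible. Each value is given by library, and intervals are exact 95% Clopper-Pearson intervals that cover counting error only.

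miRNAs guide AGO2 to RNA mainly by pairing of their seed, nucleotides 2 to 8, and miRNAs with the same seed can bind the same sites. The miR-15/16 family is known for restraining cell cycle genes such as the D-type cyclins, and its members are made from several loci. miR-103 and miR-107 lie in introns of pantothenate kinase genes and are known for targeting *Dicer1*. The miR-23, miR-27 and miR-24 genes are transcribed together from a pair of clusters and have been studied most in blood vessels, blood and muscle.

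The mature sequences are shown because the seed decides which families can share sites. They were copied from RefSeq on GRCm38.p6 and are written 5′ to 3′ with the seed in capitals.
miR-15a-5p: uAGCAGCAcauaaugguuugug
miR-15b-5p: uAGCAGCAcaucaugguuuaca
miR-16-5p: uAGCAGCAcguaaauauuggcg
miR-195a-5p: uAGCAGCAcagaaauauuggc
miR-322-5p: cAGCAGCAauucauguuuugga
miR-497a-5p: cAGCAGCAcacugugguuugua
miR-103-3p: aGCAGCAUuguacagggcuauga
miR-107-3p: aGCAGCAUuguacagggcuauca
miR-23a-3p: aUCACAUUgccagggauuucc
miR-24-3p: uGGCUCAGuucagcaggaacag
miR-27a-3p: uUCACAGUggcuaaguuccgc
miR-27b-3p: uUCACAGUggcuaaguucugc
The miR-15/16 members share 1 seed and differ after it. miR-103-3p and miR-107-3p differ at 1 nucleotide outside the seed, and so do miR-27a-3p and miR-27b-3p, so that naming 1 member rather than the other rests on that nucleotide. The 7-nt match to the seed reads TGCTGCT in the target for miR-15/16, ATGCTGC for miR-103/miR-107, AATGTGA for miR-23, CTGAGCC for miR-24 and ACTGTGA for miR-27. The miR-15/16 and miR-103/miR-107 matches share 6 nt, and the miR-103/miR-107 match followed by T holds both.

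Sites for which a match lay at the same distance from the end of the gene as a target cluster show what such a place looks like. The following were read from GENCODE transcripts on GRCm39 and carry the match in capitals, and all but the *Malat1* site are annotated as 3′UTR. *Malat1* is a nuclear non-coding RNA, and its site lies in an exon of a non-coding transcript.
Malat1 (miR-15/16), chr19:5847663-5847685, minus strand: agtactgttccaatcTGCTGCTa
Arhgdia (miR-15/16), chr11:120469846-120469868, minus strand: tctccagtgtcacatTGCTGCTt
Otud4 (miR-103/miR-107), chr8:80404233-80404255, plus strand: gccctacatggtgtgATGCTGCa
Zwint (miR-23), chr10:72510629-72510651, plus strand: gtctattgaatccagAATGTGAa
Cxcl12 (miR-23), chr6:117158139-117158161, plus strand: ttctgtctcccagatAATGTGAa
Dusp8 (miR-24), chr7:141635172-141635194, minus strand: cttacttgccacaaaCTGAGCCg
Plxnd1 (miR-27), chr6:115931987-115932009, minus strand: aaaacttatgcaccaACTGTGAa
In *Arhgdia*, for example, the match lay 918 to 924 nt before the end of the GRCm39 transcript, and the WT target cluster lay 865 to 943 nt before the end of the mm10 gene. The files use mm10 and the sequence is of GRCm39, so distances were compared, each in its own annotation, and no coordinate was converted.

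The libraries are not alike in how clusters were called. *Mov10* Deletion replicates 1 and 2 shared 614927 AGO2 clusters with identical coordinates (99.8% of each), against 89 shared by WT and replicate 1, so the places called in those brains are not independent. Of the target coordinates of any miRNA, replicates 1 and 2 had 4052 in common, or 32.7% of those in replicate 2. WT and replicate 2 had 8 in common. In *Mov10* itself, 1 of 11 AGO2 clusters was enriched in WT and 0 of 9 in each *Mov10* Deletion library, and no target cluster of any miRNA was listed there. Over all AGO2 clusters, 2.11% were enriched in WT, 5.18% in replicate 1 and 3.1% in replicate 2, by the threshold given below. Markers of neurons (7 of 7, among them *Tubb3*, *Dcx* and *Neurod2*) had AGO2 clusters in every library, and so did the markers of progenitors, glia, endothelium, mesenchyme and red blood cells, while microglial markers had them for 2, 3 and 3 of 4. An enriched cluster was present on 2 neuronal markers in WT, 6 in replicate 1 and 5 in replicate 2, and on 4, 4 and 3 of 4 globin genes. For progenitors these were 0, 4 and 1 of 4, for glia 0, 4 and 2 of 5, for endothelium 0, 2 and 1 of 5, for mesenchyme 0, 3 and 0 of 4 and for microglia 0, 0 and 1 of 4. Replicate 1 thus had most for progenitors, glia, endothelium and mesenchyme, and it also had the largest share of enriched AGO2 clusters. In whole brain, fewer cells of a type and less RNA per cell cannot be told apart, and the part of cell composition in the results was not tested.

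miR-15/16 was the largest of the families in every library and miR-103/miR-107 came next, while miR-23, miR-24 and miR-27 were rarer. The 5 families together held 2.54% of target assignments in WT (2.34 to 2.76), 3.35% in replicate 1 (3.15 to 3.56) and 3.51% in replicate 2 (3.2 to 3.83). The *Mov10* Deletion mean was 3.43% ± 0.109 (SD, n = 2). The WT interval lay below both others.

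miR-15/16 had 326 entries in WT (1.48%, 1.33 to 1.65), 573 in replicate 1 (1.88%, 1.73 to 2.04) and 248 in replicate 2 (1.84%, 1.62 to 2.09). WT and replicate 2 had intervals that overlapped at their ends, and those of the *Mov10* Deletion libraries overlapped widely. miR-103/miR-107 had 160, 264 and 138 entries in the same order, or 0.728% (0.619 to 0.849), 0.866% (0.765 to 0.977) and 1.03% (0.862 to 1.21). The replicate 1 value lay just above the WT interval, and replicate 2 alone had its whole interval above it.

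miR-23 had 26 entries in WT (0.118%, 0.0772 to 0.173), 68 in replicate 1 (0.223%, 0.173 to 0.283) and 38 in replicate 2 (0.282%, 0.2 to 0.388). miR-24 had 34, 66 and 31, and its shares of 0.155%, 0.217% and 0.23% had overlapping intervals. miR-27 had 13 in WT (0.0591%, 0.0315 to 0.101), 51 in replicate 1 (0.167%, 0.125 to 0.22) and 17 in replicate 2 (0.126%, 0.0736 to 0.202). Each of the 5 families thus had its lowest share in WT. The WT interval overlapped that of at least 1 *Mov10* Deletion library in every family but miR-23, where its upper bound met the lower bound of replicate 1.

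**Figure D1:**
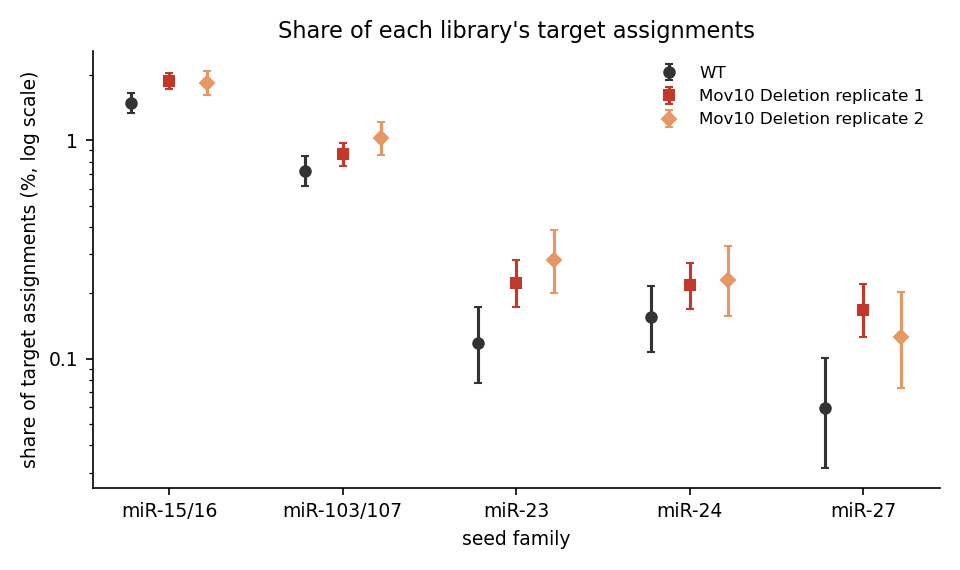
Share of each library's target assignments (%, log axis) held by each seed family, with 1 point for each library and bars for the exact 95% interval. The WT points are the lowest of each family, from 1.48% for miR-15/16 down to 0.0591% for miR-27, and several bars overlap.

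A share also depends on what fills the other part of the list. miR-124-3p, a miRNA of neurons, held 9312 of the WT entries, 10630 of those in replicate 1 and 4962 of those in replicate 2. With miR-124-3p left out of the total, the 5 families held 4.41% in WT (4.06 to 4.78), 5.15% in replicate 1 (4.85 to 5.47) and 5.56% in replicate 2 (5.08 to 6.07). On that scale miR-15/16 stood at 2.57%, 2.89% and 2.92%, with intervals that overlapped in every pair of libraries. miR-27 stood at 0.103% (0.0546 to 0.175), 0.257% (0.191 to 0.338) and 0.2% (0.117 to 0.32), and WT still lay below replicate 1. miR-103/miR-107 stood at 1.26% (1.07 to 1.47), 1.33% (1.18 to 1.5) and 1.63% (1.37 to 1.92), so that WT and replicate 2 overlapped on this scale. miR-23 stood at 0.205% (0.134 to 0.3), 0.343% (0.266 to 0.434) and 0.448% (0.317 to 0.614), with WT below replicate 2.

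Within miR-15/16, most clusters were named after miR-16-5p, with 257 of 393 assignments in WT (65.4%), 373 of 617 in replicate 1 (60.5%) and 149 of 261 in replicate 2 (57.1%). miR-15a-5p took 18.3%, 20.1% and 21.1%, and miR-15b-5p took 10.2%, 10.7% and 9.58%. miR-322-5p, miR-195a-5p and miR-497a-5p each stayed under 5% in every library. The order of the 3 leading names was the same in the 3 libraries, and the WT and replicate 2 intervals of miR-16-5p (60.5 to 70.1 and 50.8 to 63.2) overlapped.

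miR-103-3p took 89.5%, 89.0% and 90.7% of its family in WT, replicate 1 and replicate 2. Of the miR-23 assignments, miR-23b-3p took 21 of 29, 46 of 69 and 20 of 38. miR-27b-3p took 9 of 14, 31 of 53 and 8 of 17. The intervals of these shares overlapped between all libraries, and miR-23b-3p ranged from 72.4% in WT (52.8 to 87.3) to 52.6% in replicate 2 (35.8 to 69.0).

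The other strands of the same hairpins were close to absent, with 3 clusters in WT, 6 in replicate 1 and 4 in replicate 2. AGO2 clusters over the mature arms themselves gave a further view of the miRNAs. At *Mir16-1*, which encodes miR-16-5p, the log2 IP over input was 7.94 in WT, 7.83 in replicate 1 and 8.59 in replicate 2. Of 8 loci enriched in every library, 5 were lowest in WT, which were *Mir27a* (6.28, 8.13 and 7.91), *Mir27b* (3.93, 6.47 and 5.78), *Mir15b* (4.11, 5.47 and 5.16), *Mir322* (4.46, 5.89 and 5.58) and *Mir23a* (4.66, 5.44 and 5.78). *Mir15a* alone was highest in WT, with 6.41, 5.40 and 5.04, and *Mir16-2* had 6.25, 7.31 and 6.14.

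The loci of the second largest family were low by the same measure. *Mir107* had a log2 of 2.76, 3.61 and 4.25, *Mir103-2* had 1.76, 3.12 and 2.84, and *Mir103-1* had 1 AGO2 cluster in WT, at -0.24, and none in the others. *Mir24-1* and *Mir24-2* had no AGO2 cluster over the mature arm in any library, although miR-24-3p was named on 34, 66 and 31 target clusters. Thus, between the families, the number of target clusters and the AGO2 value at the miRNA's own locus did not go together. Within the largest family they did so in part. In every library *Mir16-1* had its highest value and the miRNA of that locus the most clusters. *Mir195a* (1.34, 4.38 and 3.58) and *Mir497* (2.08, 2.8 and 1.25) had its lowest values, and their miRNAs had the fewest clusters. For *Mir15a*, *Mir15b* and *Mir322*, the order by value was the reverse of that by clusters in both *Mov10* Deletion libraries. *Mir103-1* and *Mir103-2* carry the same mature sequence, and so do *Mir24-1* and *Mir24-2*. Whether reads of such copies could be placed at either locus was not tested, nor was its part in the low or missing values. *Mir16-1* and *Mir16-2* also share a mature sequence and were enriched in every library. The locus of miR-23b was not measured.

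The genes that carry these miRNAs were not themselves listed as targets. No target cluster of the 5 families lay in *Dleu2* or *Smc4*, the hosts of miR-15 and miR-16, in *Pank1*, *Pank2* or *Pank3*, the hosts of miR-107 and miR-103, or in *Aopep*, which holds a miR-23b, miR-27b and miR-24 cluster, in any library. Of all 45306 genes with a strand, 1.91% were listed for miR-15/16 in any library, and 0.168% to 0.954% for each other family. At such shares the absence of a few genes is no result about the hosts.

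Most target clusters had scores near the lower end of the lists. The lists start at a deposited score of 3, and the median score of the 5 families was 3.97 in WT and 4.0 in both *Mov10* Deletion libraries, against 4.68, 4.0 and 4.0 for all other miRNAs. The highest scores were 73.0, 67.7 and 32.9. What the score measures is not described by the authors, and it is used here as a rank, with no claim about binding strength. Nearly all entries lay inside a gene on its sense strand, with 96.6% in WT, 98.0% in replicate 1 and 97.5% in replicate 2. Target clusters were wider in WT, with a median of 80 nt against 63 nt in replicate 1 and 65 nt in replicate 2. For all other miRNAs the medians were 82, 67 and 69 nt. The part of width in the overlaps and matches below was not tested.

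Fewer of these places lay on an enriched AGO2 cluster in the *Mov10* Deletion libraries than in WT, and this was also so for other miRNAs. An AGO2 cluster counted as enriched where the log2 ratio of IP to input and the −log10 p both reached 3, which held for 2.11% of all AGO2 clusters in WT, 5.18% in replicate 1 and 3.1% in replicate 2. Of the members, 113 of 559 lay on an enriched AGO2 cluster in WT (20.2%, 17.0 to 23.8), 133 of 1022 in replicate 1 (13.0%, 11.0 to 15.2) and 45 of 472 in replicate 2 (9.53%, 7.04 to 12.5). The *Mov10* Deletion mean was 11.3% ± 2.46 (SD, n = 2). For all other miRNAs the shares were 19.9%, 14.7% and 14.2%. The members were at the level of the others in WT, and in replicate 2 their interval lay below it.

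Much of this difference lay in whether a place had an AGO2 cluster at all, which 70.1% of members had in WT (66.1 to 73.9), 44.7% in replicate 1 (41.6 to 47.8) and 47.2% in replicate 2 (42.7 to 51.9). For all other miRNAs it was 73.0%, 54.2% and 56.2%. The *Mov10* Deletion libraries have 99.8% of their AGO2 cluster coordinates in common, while WT has its own set. Their similar shares are therefore not independent of each other, and the part of cluster calling in the difference from WT was not tested. Among places with an AGO2 cluster, 28.8% were enriched in WT (24.4 to 33.6), 29.1% in replicate 1 (25 to 33.5) and 20.2% in replicate 2 (15.1 to 26.1), so that WT and replicate 1 differed little and replicate 2 was lower, with an interval that overlapped both. For all other miRNAs these shares were 27.2%, 27% and 25.4%. The median AGO2 log2 at the members was 2.27, 2.26 and 1.72, against 2.11, 2.07 and 2.06 for all other miRNAs.

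miR-15/16 carried most of the WT signal, with 81 of 326 entries on an enriched cluster (24.8%, 20.2 to 29.9), against 74 of 573 in replicate 1 (12.9%, 10.3 to 15.9) and 27 of 248 in replicate 2 (10.9%, 7.3 to 15.4). miR-103/miR-107 gave 14.4%, 14.0% and 9.42%, with intervals that overlapped in every pair of libraries. The rarer families had 4, 4 and 1 enriched entries in WT for miR-23, miR-24 and miR-27, too few to compare.

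These shares depended on whether a place was listed under 1 family or several. In WT, 190 member entries (34.0%) were also listed under another family, against 183 (17.9%) in replicate 1 and 59 (12.5%) in replicate 2. All other miRNAs had 27.8%, 17.4% and 12.7%. Each other miRNA counts as its own family, so other miRNAs with a common seed count as several families at a coordinate, which members of 1 family do not. The values of members and others in this paragraph are thus not counted alike. Among entries of several families, 39.5% lay on an enriched AGO2 cluster in WT, 36.1% in replicate 1 and 32.2% in replicate 2, against 41.2%, 38.7% and 39.6% for all other miRNAs. Among entries of 1 family only, it was 10.3% (7.39 to 13.9), 7.99% (6.24 to 10) and 6.3% (4.15 to 9.09). The members named after 1 family therefore differed less between WT and *Mov10* Deletion than the members as a whole, and the corresponding values of all other miRNAs were 11.7%, 9.62% and 10.6%. For miR-15/16 alone, entries of 1 family gave 13.3% (9.0 to 18.6), 8.01% (5.7 to 10.9) and 7.31% (4.23 to 11.6).

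Clusters near the end of the gene were more frequent in WT than in *Mov10* Deletion. The last 1000 nt of the gene held 153 of 559 members in WT (27.4%, 23.7 to 31.3), 179 of 1022 in replicate 1 (17.5%, 15.2 to 20) and 75 of 472 in replicate 2 (15.9%, 12.7 to 19.5). All other miRNAs had 18.8%, 14.2% and 15.5% there. The members were above the others in WT and in replicate 1, and at their level in replicate 2. miR-15/16 had 27.3%, 16.2% and 14.5%, and miR-103/miR-107 had 29.4%, 21.6% and 18.1%.

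The median distance from the end of the gene was 2330 nt in WT, 5570 nt in replicate 1 and 6250 nt in replicate 2, against 6150, 14500 and 12300 nt for all other miRNAs. As a whole the members lay closer to gene ends than other miRNAs in each library, and miR-24, at 4720, 22800 and 36400 nt, was the exception among the families in *Mov10* Deletion. Members in the last 1000 nt lay on an enriched AGO2 cluster in 30.1%, 27.9% and 28% of cases in WT, replicate 1 and replicate 2, and all other miRNAs did so in 31.0%, 28.9% and 28.2%. For the remaining members, with the few outside genes included, it was 16.5% (13.0 to 20.5), 9.85% (7.92 to 12.1) and 6.05% (3.91 to 8.86), against 17.3%, 12.3% and 11.7% for all other miRNAs. In the last 1000 nt the members were thus at the level of the others. Beyond it the intervals of both *Mov10* Deletion libraries lay below the value of the others, narrowly so in replicate 1.

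**Figure D2:**
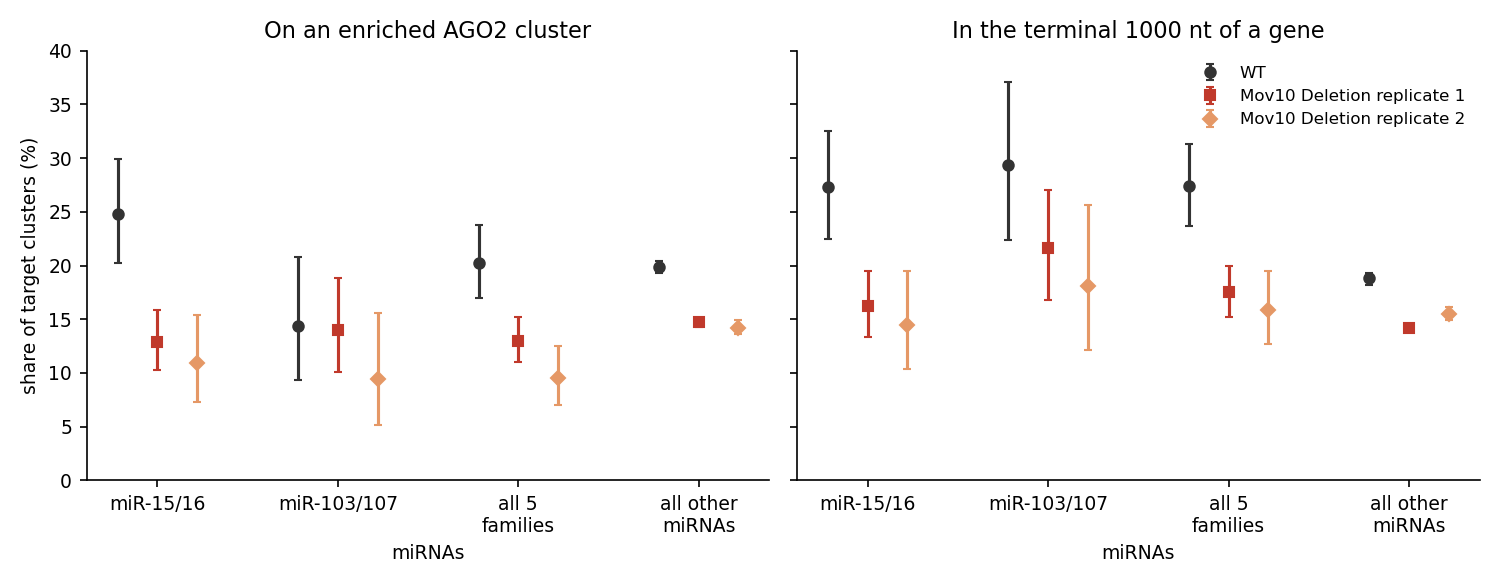
Share of target clusters (%) on an enriched AGO2 cluster (left) and in the last 1000 nt of a gene (right), with 1 point for each library and bars for the exact 95% interval. In WT, miR-15/16 stands at 24.8% on the left and miR-103/miR-107 at 29.4% on the right, and in *Mov10* Deletion the 5 families together lie between 9.53% and 17.5%.

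Seed matches were searched on the sense strand of transcripts. Of all protein-coding transcripts with at least 1000 nt (n = 19492), the last 1000 nt held the match of miR-15/16 in 16.8%, of miR-103/miR-107 in 9.14%, of miR-23 in 10.6%, of miR-24 in 14.0% and of miR-27 in 12.5%. In genes with a miR-15/16 cluster in the last 1000 nt, the miR-15/16 match was present for 49 of 79 clusters in WT (62.0%, 50.4 to 72.7) and 66 of 114 in the *Mov10* Deletion libraries together (57.9%, 48.3 to 67.1). A gene listed in both *Mov10* Deletion libraries counts in each, so their pooled intervals are not of independent places. The miR-27 match was present for 2 of 3 and 7 of 11, the miR-23 match for 6 of 8 and 8 of 18, and the miR-24 match for 3 of 4 and 2 of 11. For miR-103/miR-107 it was 7 of 42 (16.7%, 6.97 to 31.4) and 18 of 71 (25.4%, 15.8 to 37.1). By library the latter were 13 of 49 in replicate 1 (26.5%, 14.9 to 41.1) and 5 of 22 in replicate 2 (22.7%, 7.82 to 45.4). The interval lay above the 9.14% of all genes in replicate 1 and reached it in WT and replicate 2.

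The match of a cluster's own family was then looked for inside the cluster, by distance from the gene's end, for clusters within the last exon. Over the 3 libraries, 202 of 508 miR-15/16 clusters held it (39.8%, 35.5 to 44.2), against 3 or 4 clusters that held the match of miR-23, miR-24 or miR-27. A place listed in several libraries counts in each, so the pooled intervals are not of independent places. For miR-15/16, 89 of all 326 WT clusters overlapped one of replicate 1. The own match was held by 15 of 57 miR-23 clusters (26.3%, 15.5 to 39.7), 9 of 36 miR-24 clusters (25%, 12.1 to 42.2) and 9 of 44 miR-27 clusters (20.5%, 9.8 to 35.3). In these 4 families the own match was the most frequent of the 5.

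miR-103/miR-107 stood apart. Its clusters held the miR-103/miR-107 match in 24 of 258 cases (9.3%, 6.05 to 13.5) and the miR-15/16 match in 27 (10.5%, 7.01 to 14.9). A shorter match, to nucleotides 2 to 7 alone, was held by 93 of these clusters (36.0%, 30.2 to 42.2). Its letters, TGCTGC, lie within the miR-15/16 match, and the corresponding values were 51.0% for miR-15/16, 38.6% for miR-23, 33.3% for miR-24 and 56.8% for miR-27. The 7-nt match of miR-103/miR-107 needs an A in the target opposite nucleotide 8 of the miRNA, so in most of these clusters the short match lacked that base.

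**Figure D3:**
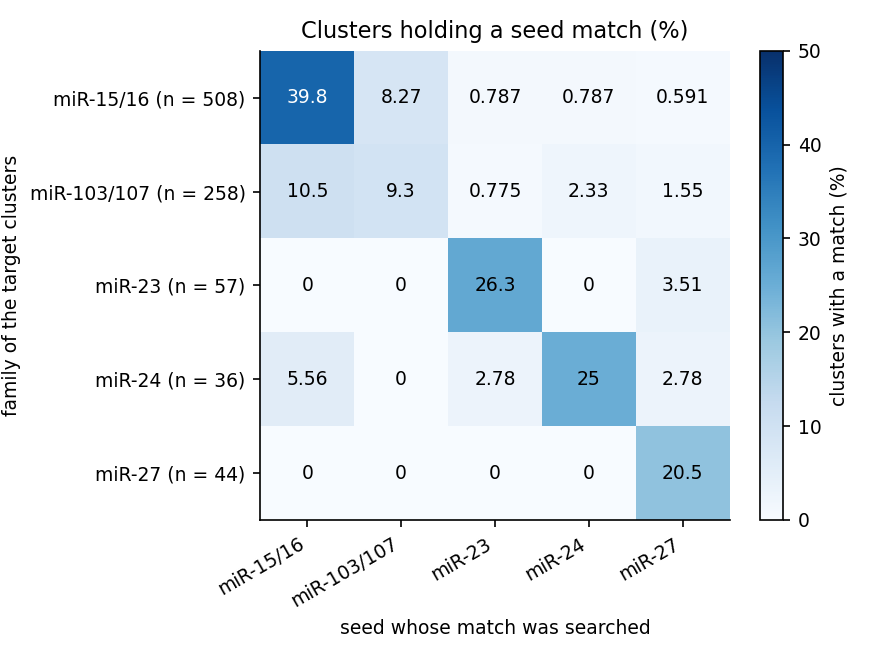
Percent of target clusters of each family (vertical axis, with the number of clusters) that held the 7-nt seed match of each family (horizontal axis) inside their own distances from the gene's end, with the 3 libraries together. The diagonal runs from 39.8% for miR-15/16 to 9.3% for miR-103/miR-107, and away from it 10.5% and 8.27% stand where miR-15/16 and miR-103/miR-107 meet. A place listed in several libraries counts in each.

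By library, miR-15/16 clusters held their own match in 85 of 184 cases in WT (46.2%, 38.8 to 53.7), 85 of 231 in replicate 1 (36.8%, 30.6 to 43.4) and 32 of 93 in replicate 2 (34.4%, 24.9 to 45.0). WT was the highest and its interval overlapped both others. The miR-15/16 clusters were also widest in WT, with medians of 81, 63 and 64.5 nt, and the part of width was not tested. Matches were also concentrated at the clusters. Of the own-family matches within 500 nt of a cluster's middle, 60.4% lay within 50 nt of it in WT (131 of 217), 56.8% in replicate 1 and 52.7% in replicate 2. Of the matches of the other 4 families, 23.1%, 23.9% and 20.2% did so, a set that includes miR-15/16 and miR-103/miR-107 matches to each other's clusters.

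**Figure D4:**
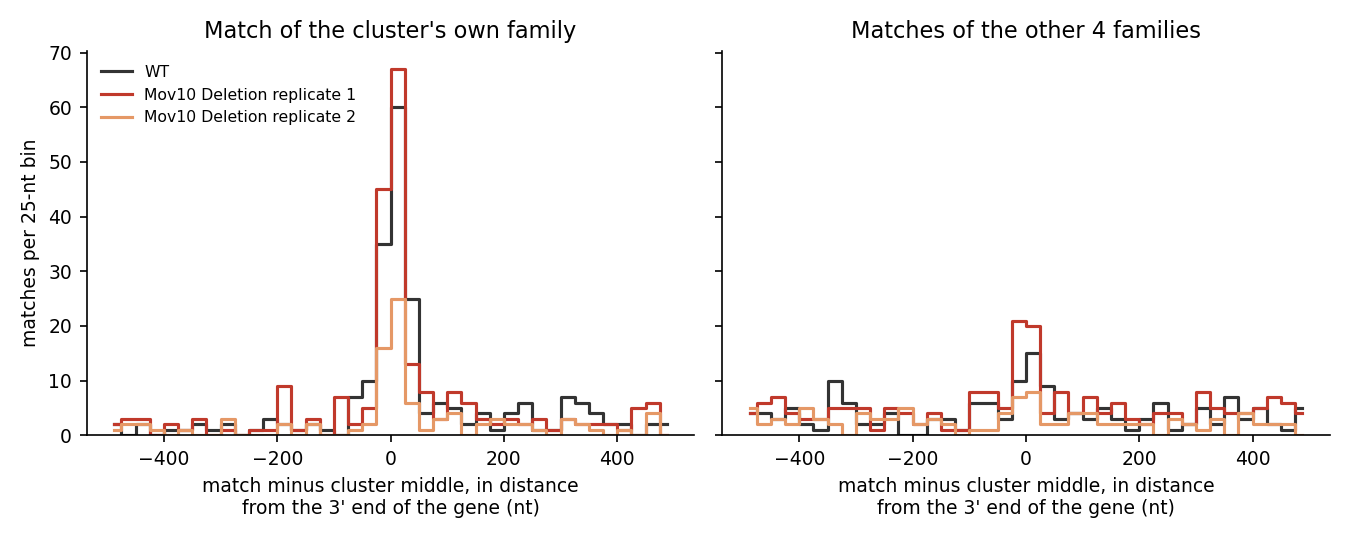
Number of seed matches in bins of 25 nt by distance from the middle of the target cluster (nt, counted in distance from the gene's end), for the cluster's own family (left) and the other 4 families (right), with 1 line for each library. Matches of the own family peak at the middle in every library, with 131 within 50 nt in WT, 130 in replicate 1 and 49 in replicate 2.

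Few genes were listed for the same family in every library. Counting a gene once for each family, 521 pairs were listed in WT, 915 in replicate 1 and 441 in replicate 2, or 1607 pairs in all. All 3 libraries shared 49 of them (3.05%, 2.26 to 4.01), against 10.5% of pairs for all other miRNAs. The 49 were 30 for miR-15/16, 14 for miR-103/miR-107, 2 each for miR-23 and miR-24 and 1 for miR-27. A further 50 pairs were found in replicates 1 and 2 but not in WT, where the other miRNAs had 2.53% of their pairs, and 350 in WT only, where the other miRNAs had 20.5%.

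Of the 441 pairs of replicate 2, 22.4% (18.6 to 26.6) were listed in replicate 1 and 19.0% (15.5 to 23) in WT, with intervals that overlapped. Of the 521 WT pairs, 26.1% were listed in replicate 1 and 16.1% in replicate 2. The lists are of unequal length, and replicate 2 was the shortest. All 75 member clusters of replicate 2 that overlapped one of replicate 1 had identical coordinates, and 0 were identical with WT. The places listed in replicates 1 and 2 are thus not independent.

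Frequent miRNAs share more genes between libraries, so 7 other miRNAs with as many pairs as miR-103/miR-107 to miR-15/16 (432 to 865) were set beside them. These were let-7a-5p, let-7b-5p, miR-128-3p, miR-181a-5p, miR-26a-5p, miR-466f-3p and miR-9-3p. They shared between 4.53% and 9.65% of their pairs among the 3 libraries, with a median of 6.12%, while miR-15/16 shared 3.47% (2.35 to 4.91) and miR-103/miR-107 shared 3.24% (1.78 to 5.38). For enrichment in WT, the 24.8% of miR-15/16 lay within their range of 17.5% to 38.3% and the 14.4% of miR-103/miR-107 below it. In the last 1000 nt, both families lay within the range of 3.76% to 31.0%. A share of assignments that was lowest in WT was also seen for miR-128-3p, with 1.43%, 1.87% and 2.1% in WT, replicate 1 and replicate 2. None of the others among these miRNAs was lowest in WT.

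The shared miR-15/16 genes were led by *Gnas*, which encodes the stimulatory G protein alpha subunit. Its best-scoring clusters, at mm10 chr2:174346332-174346450 in WT and chr2:174346343-174346453 in *Mov10* Deletion, lay 291 to 412 nt before the end of the gene. They were listed under no other family, and miR-16-5p was the best-scoring name. Replicate 2 had 2 clusters in the gene. The scores were 47.7 in WT, 37.9 in replicate 1 and 32.9 in replicate 2. The AGO2 cluster at this place had a log2 IP over input of -0.89, -1.26 and -0.87, below the input in every library.

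In *Malat1*, the scores at chr19:5797566-5797677 (WT) and chr19:5797573-5797672 (*Mov10* Deletion) were 73.0, 67.7 and 27.9, the highest of the families in WT and replicate 1. The place was listed under 5 families, a miRNA outside the members counting as its own. Its AGO2 log2 values were 0.56, 0.85 and 1.06, none of them enriched. *Arhgdia* had scores of 40.9, 31.7 and 9.46 at chr11:120578964-120579042 and its *Mov10* Deletion counterpart. Here AGO2 was enriched in each library, with log2 values of 5.99, 4.72 and 5.25. A high score and AGO2 enrichment were thus both present in *Arhgdia* and did not go together in *Gnas* and *Malat1*.

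*Hspa8*, the constitutive HSC70 chaperone, had scores of 15.6, 37.8 and 24 at chr9:40802831-40802865 in WT and chr9:40802826-40802891 in *Mov10* Deletion, 2311 to 2376 nt before the end of a gene of 3927 nt. WT was lowest there. The AGO2 log2 was 2.83, 2.93 and 3.77, past the threshold in replicate 2 alone. Next in rank were *Cacul1* (25.4, 18 and 9.0), *Dclk1*, a doublecortin-like kinase of neurons (19.3, 13.9 and 6.56), and *Kif5c*, a neuronal kinesin motor (8.58, 6.2 and 6.8). The other shared genes included *Tuba1a* (11.9, 4.0 and 3.0), an alpha tubulin, *Cdc42* (8.74, 3.77 and 5.75), a small GTPase of cell polarity, and *Cpeb2* (9.63, 8.39 and 4.73), an RNA-binding protein of translation. *Slc35f3*, listed for miR-103/miR-107, had 46.4, 6.66 and 3.58. *Igf2*, a growth factor gene, was listed for both families, with 23.8, 8.84 and 3.74 for miR-15/16 and 10, 13 and 5.0 for miR-103/miR-107. *Cacul1* and the genes named after it in this paragraph were chosen after their values were seen, as were *Cadm3* and *Dll1* among the miR-103/miR-107 genes.

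*Otud4*, a deubiquitinase, led miR-103/miR-107, with scores of 15.7 in WT at chr8:79677538-79677661, 21.8 in replicate 1 and 15.8 in replicate 2, within 230 nt of the gene's end. AGO2 was enriched at the place in every library, with log2 values of 3.73, 5.0 and 5.21. *Atp5o*, a subunit of mitochondrial ATP synthase, had scores of 15.8, 21.0 and 11.8 and AGO2 values of 2.56, 3.38 and 1.25. *Gga3*, an adaptor for vesicle sorting, had 11.5, 8.0 and 8.54 close to its end, with no AGO2 cluster there in WT and log2 values of 3.12 and 4.25 in *Mov10* Deletion.

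The next place, at chr1:173332018-173332106, lay in *Ackr1* and *Cadm3* at once, genes that overlap on the same strand and cannot be told apart here. Its scores were 6.42, 8.0 and 6.0. *Dicer1*, which encodes the enzyme that makes mature miRNAs, had miR-103-3p scores of 18.1, 14.5 and 5.28 at chr12:104703009-104703081 in WT. This best-scoring place lies 15269 to 15341 nt before the end of a gene of 64229 nt, and so outside its last 1000 nt. The gene had 3 clusters of the family in WT, 2 in replicate 1 and 1 in replicate 2, and the lower-scoring places are not given. AGO2 there had log2 values of 5.15, 3.74 and 2.74, enriched in WT and replicate 1. *Dll1*, a Notch ligand, had scores of 9.0, 5.84 and 5.0.

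For miR-23, *Zwint*, a kinetochore protein also found in neurons, had best scores of 9.85, 8.0 and 4.44. The best-scoring places lay 75 to 180 nt before the gene's end in WT and replicate 1 and 577 to 661 nt before it in replicate 2. WT and replicate 1 had 2 clusters each in this gene and the lower-scoring place is not given, so whether the places differ between libraries is not shown. *Sema6d*, a semaphorin, had 3.91, 9.17 and 5.58 at overlapping places with enriched AGO2 in each library (log2 4.08, 3.66 and 3.16). For miR-24, *Sub1*, a transcriptional coactivator, had 8.91, 6.77 and 3.0, and AGO2 was not enriched. For miR-27, *Map1b*, a microtubule-associated protein of growing axons, had 27.1, 13.8 and 7.62 at chr13:99423479-99423581 and its counterpart. AGO2 at *Map1b* stood at 0.30, 0.30 and -0.14, close to the input.

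**Figure D5:**
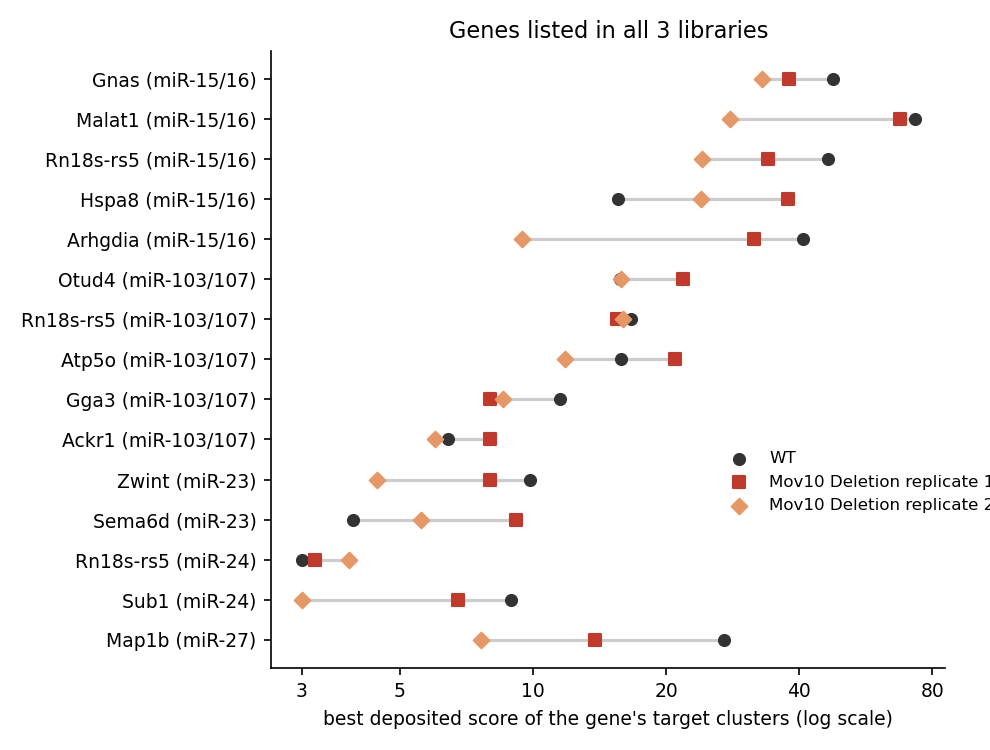
Best deposited score (log axis) of the target clusters of each gene and family that ranked highest among those listed in all 3 libraries, with 1 point for each library and a line over their range. Replicate 2 is lowest for *Malat1* (27.9), *Arhgdia* (9.46) and *Map1b* (7.62), and WT is lowest for *Hspa8* (15.6) and *Sema6d* (3.91).

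*Rn18s-rs5*, an 18S rRNA gene, was listed for miR-15/16, miR-103/miR-107 and miR-24 in all libraries. It held 19 member entries on 12 coordinates in WT, 16 on 10 in replicate 1 and 13 on 8 in replicate 2, or 3.4%, 1.57% and 2.75% of the members. Each of those coordinates was listed under many miRNAs at once. With the 5 seed families and every other single miRNA counted as 1 each, these were 9 to 48 in WT, 12 to 66 in replicate 1 and 7 to 43 in replicate 2. It was also the only gene with at least 3 of the 5 families in WT or in replicate 2. In replicate 1 the other such genes were *Dpp10*, *Pcdh9* and *Nrg3*, which encode neuronal membrane or adhesion proteins and a neuregulin and span 1513678, 879135 and 1108134 nt. Their best places there had scores from 3.0 to 9.71 and lay at least 150324 nt before the gene's end.

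Genes seen in both *Mov10* Deletion libraries but absent from the WT list had scores of at most 6.0 by this ranking, apart from *Rn18s-rs5* for miR-23. For miR-15/16 they were led by *Zfp532*, a zinc finger gene (6.0 and 5.0), *Insm1*, a transcription factor of neuronal progenitors (5.17 and 5.0), and *Agfg1* (6.0 and 5.0 at places that did not overlap). In *Insm1* the place lay 116 to 193 nt before the gene's end at chr2:146224827-146224904, and AGO2 there had a log2 of 2.88 in WT, 5.14 in replicate 1 and 3.02 in replicate 2. For miR-103/miR-107 they were *Tmem170b* (5.19 and 5.33), *Dapk1*, a death-associated kinase (5.31 and 4.0, at places that did not overlap), and *Ago1*, a relative of AGO2 (4.0 and 3.67, likewise). *Plxnd1*, a semaphorin receptor, was the 1 such gene of miR-27, with a score of 4.0 in both replicates and the site shown above.

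Genes listed in WT only were led for miR-15/16 by *Mmp16*, a membrane-type metalloproteinase (13.9), *Ncs1*, a neuronal calcium sensor (9.67), and *Plpp3*, a lipid phosphatase (8.88). AGO2 in *Ncs1* had log2 values of 3.32, 2.95 and 3.42, so that AGO2 was enriched there in replicate 2 too, without a miR-15/16 cluster in its list. For miR-103/miR-107 *Ogt*, the O-GlcNAc transferase, had a score of 11.9. For miR-23 they were *Mkrn3*, an imprinted gene that overlaps *Gm32061* (8.0), and *Insig1*, a regulator of sterol synthesis (4.6). In *Mkrn3* AGO2 was enriched in all libraries, at 5.17, 3.54 and 4.48. For miR-24 they were *Taf1d* (7.79), *Dusp8*, a phosphatase of MAP kinases (5.77), and *Acvr1b*, an activin receptor (5.0). For miR-27 *Phactr1*, *Snn* and *Nsd1* had scores of at most 4.0. Since lists start at a score of 3, a gene absent from a list may lie just under it.

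Some textbook targets of the families were listed, from hand-written lists of 12 to 18 genes. Of all 45306 genes with a strand, 1.91% were listed for miR-15/16 in any library, 0.954% for miR-103/miR-107, 0.254% for miR-23, 0.263% for miR-24 and 0.168% for miR-27. Of 18 such genes for miR-15/16, 3 had a cluster of that family, which were *Wee1* in WT (3.9), *Btg2* in WT (3.0) and *Smad7* in replicate 1 (7.0). The cyclins *Ccnd1*, *Ccnd2*, *Ccnd3* and *Ccne1* and the apoptosis inhibitor *Bcl2* had none. Of 13 for miR-103/miR-107 there were 3, which were *Dicer1* in all libraries, *Dapk1* in both *Mov10* Deletion libraries, and *Cdk5r1*, the p35 activator of CDK5, in WT (6.03). *Cdk5r1* was also listed for miR-15/16 in each library, with scores of 11.0, 8.88 and 3.0.

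For miR-23, *Cxcl12*, a chemokine, was the 1 of 12, with scores of 5.88 in WT and 3.93 in replicate 1, both within 225 nt of its end, where AGO2 had log2 values of 2.76, 3.50 and 4.58. Of 13 for miR-24, *Acvr1b* was listed in WT and *Nlk*, a kinase of Wnt signalling, in replicate 1 (3.97). Of 15 for miR-27, 0 were listed in any library. Many of the same genes carried clusters of other miRNAs alone, for example 10 of the 18 miR-15/16 genes in WT, 14 in replicate 1 and 9 in replicate 2.

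miR-15/16 and miR-103/miR-107 met in the same genes more than other pairs of families did in number. They shared 25 genes in WT, which is 8.14% of the miR-15/16 genes and 17.1% of the miR-103/miR-107 genes, 40 in replicate 1 (7.97% and 16.9%) and 9 in replicate 2 (3.9% and 7.14%). Clusters of identical coordinates under both families numbered 21, 15 and 4. Some of these lay in the rRNA gene *Rn18s-rs5*, which was not set aside. It held 19 member entries on 12 coordinates in WT, 16 on 10 in replicate 1 and 13 on 8 in replicate 2. As a share of the smaller family other pairs were as high, such as miR-15/16 with 15 genes of miR-23 in replicate 1 (23.8%) and with 2 of miR-27 in replicate 2 (11.8%). miR-23, miR-24 and miR-27, which are transcribed together, shared at most 2 genes between any of them in any library.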

How the data were processed

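AGO2 chimeric eCLIP of P0 brain was analysed for 1 WT and 2 *Mov10* Deletion libraries. The authors pruned molecular identifiers (UMI-tools 1.1.1), trimmed adapters (cutadapt 3.2), set aside reads of repeats and rRNA, aligned to mm10 (STAR 2.7.7a) and called AGO2 clusters with CLIPper. In reads left unmapped, miRNAs were located with Bowtie 1.2.3 and the other portion was aligned and clustered. The authors deposited each AGO2 cluster with its IP over input as log2 and its p-value as −log10, and each target cluster of chimeric reads with a miRNA and a score. Read depth is unknown, so precision rests on cluster numbers.

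Clusters were placed by their middle in RefSeq gene bodies on GRCm38.p6 (mm10). Of 49993 genes, 45306 had a strand, from RefSeq (28096) or GENCODE vM39 by symbol, and the others were left out. AGO2 and target clusters were matched by at least 1 nt on the same strand. Seed matches were read in each gene's GENCODE transcript that ends furthest downstream (GRCm39), and mm10 exons were not used here. Python 3.11.15, pandas 2.3.3 and scipy 1.17.1 were used, and the overlap, interval and match functions were tested on simulated data.

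Named genes were, by family, the top 5 listed in all libraries, the top 3 in both *Mov10* Deletion libraries and not WT, the top 3 in WT only, listed textbook targets, genes with 3 or more families, and host genes, ranked by lowest best score. Members and lists were chosen with earlier results of these data known. The lists of textbook targets and markers were written by hand from general knowledge. One place that the naming rule selected is not reported here.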

Additional observations from a re-analysis of the deposited data

How the results depend on the processing

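No paired analysis was possible because the genotypes share only replicate number 1 and WT has 1 library. The order of WT and *Mov10* Deletion was the same in all alternatives with both values, apart from an equal share of seed matches in longer transcript ends. Values below are for WT and for the *Mov10* Deletion mean, and the cause of each shift was not tested. The share of assignments of the 5 families was 1.79% and 2.9% at a score of at least 5, 2.33% in WT at coordinates of 1 family only, 2.24% and 3.2% with the 12379 best coordinates of each library, 2.9% and 3.57% with each miRNA name counted and 4.41% and 5.35% without miR-124-3p, and it ranged from 3.35% to 3.51% when either *Mov10* Deletion library was left out. The share on an enriched AGO2 cluster was 30.8% and 14.6% at a score of at least 5, 10.3% and 7.14% at coordinates of 1 family only, 26.8% and 14.5% with equal numbers of coordinates, 15.2% in WT at a −log10 p of at least 5, and 38.1% and 18.7% at a log2 of at least 1, and 28.8% and 24.6% among places with an AGO2 cluster, where replicate 1 (29.1%) was above WT (range without a library 9.53% to 13.0%). The share in the last 1000 nt was 33.7% and 21.3% at a score of at least 5, 13.7% in *Mov10* Deletion at coordinates of 1 family only, 18.9% in *Mov10* Deletion with equal numbers, 17.0% and 10.2% for 500 nt and 43.3% and 27.1% for 2000 nt (15.9% to 17.5% without a library). The share of seed matches, 49.3% and 44.2% in the last 1000 nt, was 77.2% and 75.4% for 6-nt matches, 58.4% and 58.4% in the last 2000 nt, and 34.8% and 25% inside the cluster's own distances (42.4% to 45.9% without a library). The 49 gene and family pairs of all libraries fell to 21 at a score of at least 5 and to 18 at coordinates of 1 family only, and were 84 without *Mov10* Deletion replicate 1 and 136 without replicate 2. Leaving out miR-124-3p, matching inside the cluster's distances, counting places with an AGO2 cluster and splitting coordinates by number of families were chosen after seeing the data.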
